A study of Sus scrofa with 13 samples.

Results

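The vacuolar ATPase, the proton pump of endosomes and lysosomes, and the proteins that sort cargo through those compartments were examined in infarcted pig hearts. The genes were taken by symbol: every gene whose name in the array's annotation begins with ATP6V, ATP6AP, VPS or CHMP, together with RNASEK and TCIRG1. This gave 45 of the 6765 genes named by exactly 1 symbol, read by 65 probe sets, which are sets of short probes for 1 transcript. Where a gene had several probe sets, the one with the highest mean over the 13 arrays stood for it. The genes were brought together because RNASEK, VPS28 and ATP6V1F had low values after stem cells. The contrast of stem cells with saline had therefore been used in choosing them, and its values for these genes, including counts of genes past a p-value mark, are given below as a description and test nothing.

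The vacuolar ATPase is built from a cytosolic V1 sector, which splits ATP and turns a central stalk, and a membrane V0 sector, whose ring of proteolipid subunits carries protons into the lumen. The acid it makes is needed by lysosomal hydrolases and for the release of cargo from receptors. ESCRT complexes gather ubiquitinated membrane proteins on endosomes and bud them into the lumen, with ESCRT-III filaments cutting the neck and the ATPase VPS4 taking the filaments apart. Retromer returns receptors from endosomes, HOPS and CORVET tether membranes before they fuse, and GARP and EARP tether vesicles bound for the Golgi and for recycling. In heart muscle this system serves autophagy and the turnover of mitochondria and membrane proteins.

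All 13 donors of heart tissue were female miniature pigs of the Sinclair miniswine breed. They were 3 months old and weighed about 10 kg when a permanent tie closed diagonal branches of the LAD, the artery along the front of the left ventricle. All animals, the controls included, thus had an infarct. Then 7 animals received 50000000 stem cells, called MPCs in the labels, as 10000000 at each of 5 border zone sites, in 2 ml saline, and 6 received 2 ml saline in 5 injections. Drill biopsies were taken at month 4, and each animal gave 1 Affymetrix porcine array. The origin of the cells, whether any remained, and where each biopsy lay relative to the scar are not given in the labels. The comparison asked whether gene expression differed between the groups.

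The values are log2 intensities, from intensities that the authors normalized between arrays. Intensities of different probe sets are not on a common scale, so levels are compared between animals and never between genes. Probe sets entered the tests when their 13-array mean exceeded 3.36 on the log2 scale, the 40th percentile, and 14399 did. Arrays correlated pairwise at 0.936 to 0.986 over these. All 14 named cardiomyocyte markers passed the filter, and their mean per animal was 13.57 or more after saline and 13.66 or more after stem cells, so heart muscle was read in each biopsy. Precision is limited by how few arrays there are. In tissue RNA, fewer cells of a type and less RNA per cell cannot be told apart.

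Of the 45 genes, 37 passed the filter. The other 8 were ATP6V0A4, ATP6V0D2, ATP6V1C2, ATP6V1G2, CHMP1A, VPS13C, VPS13D and VPS53. Of these, ATP6V0A4, ATP6V0D2, VPS13D and VPS53 lay at 2.33, 2.11, 2.37 and 2.45, below 2.58, which was the highest mean of the 17 tag controls, probe sets without a pig target. The kidney-type subunit ATP6V0A4 and the subunit ATP6V0D2, best known from osteoclasts and macrophages, were thus not above that background, and neither were the lipid transfer protein VPS13D and the GARP subunit VPS53. ATP6V1C2, ATP6V1G2, CHMP1A and VPS13C lay between that background and the filter, at 2.78, 3.33, 3.18 and 3.26. The pump subunits that passed the filter included the widely expressed ATP6V1A, ATP6V1B2, ATP6V1C1, ATP6V1G1 and ATP6V0D1. Since probe sets are not on a common scale, a value under the filter does not show that a transcript was absent.

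Among the 37 genes that passed, the largest differences lay in a few genes. RNASEK and ATP6V1F of the pump and VPS28 of ESCRT-I had log2 differences (stem cells minus saline) of -0.85, -0.75 and -0.64, while ATP6V1B2, which forms part of the catalytic head of the pump, stood at 0.00 and the stalk subunit ATP6V1G1 at 0.05. The differences over all 37 genes ran from -0.85 for RNASEK to 0.30 for the HOPS subunit VPS39. Their median was -0.083, beside 0.0169 over all probe sets tested and -0.0539 over 5196 genes with 1 probe set each. Negative differences were found in 25 of the 37 genes (67.6%), where 47.2% of all probe sets and 59.4% of genes were negative. Without the 3 genes that led to the choice, 22 of 34 were negative (64.7%) and the median was -0.0651.

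With p-values adjusted over all probe sets by limma, 0 of the 37 genes passed 0.05, and the share of all 14399 probe sets that passed was 0%. The smallest adjusted p of any probe set was 0.393. At an unadjusted p under 0.05, 5 genes were lower after stem cells, RNASEK, VPS28, ATP6V1F, ATP6V1E1 and CHMP2A, where 5.15% of all probe sets met this mark. The gene VPS39 was higher, where 5.4% of all probe sets did. Without the 3 genes that led to the choice, the count of lower genes was 2 of 34 (5.88%), a share near that of all probe sets. The groups did not overlap for VPS28 and ATP6V1F, a separation found in the lower direction for 0.16% of all probe sets. Without the 3 genes that led to the choice, it was found in that direction for 0 of 34 genes. These counts describe genes chosen on this contrast and support nothing by themselves.

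**Figure D1:**
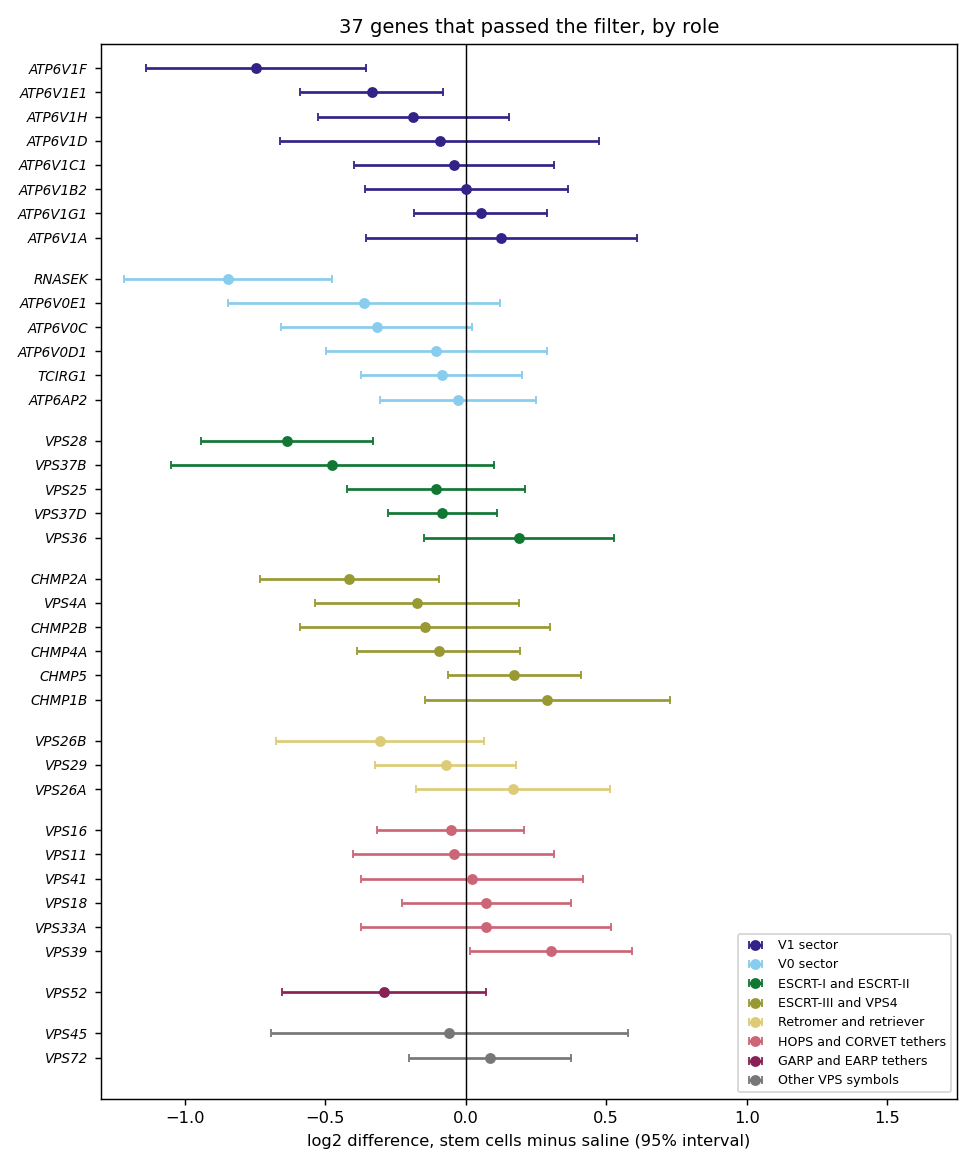
Log2 difference, stem cells minus saline, with its 95% interval (horizontal axis) for the 37 genes that passed the filter, coloured by role. RNASEK at -0.85, ATP6V1F at -0.75 and VPS28 at -0.64 lie farthest to the left within their role groups, and ATP6V1B2 lies at 0.00.

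RNASEK encodes a small membrane protein that associates with the V0 sector and is also known as ribonuclease kappa. After stem cells its log2 intensity ran from 9.15 to 10.29 with a median of 9.51, and after saline from 10.19 to 10.76 with a median of 10.53. Every one of the 7 stem cell values was under the saline mean and 6 of 7 were under the lowest saline value; stem cells replicate 7 alone overlapped with saline replicate 1. The means were 9.65 ± 0.39 (SD, n = 7) and 10.50 ± 0.19 (SD, n = 6), a log2 difference of -0.85 ± 0.17 (SE), or 44.4% lower on the linear scale.

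ATP6V1F encodes the F subunit of the central stalk, the rotor that couples the V1 head to the proteolipid ring. After stem cells its log2 intensity ran from 6.91 to 7.65 with a median of 7.01, and after saline from 7.69 to 8.32 with a median of 7.82. The groups did not overlap, but the gap between the highest stem cell animal and the lowest saline animal was narrow. It closed when the arrays were centred on their medians or normalized again by quantiles. The log2 difference was -0.75 ± 0.18 (SE), between means of 7.20 ± 0.33 (SD, n = 7) and 7.94 ± 0.27 (SD, n = 6).

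VPS28 encodes a core subunit of ESCRT-I that links it to ESCRT-II. Its log2 intensity ran from 8.67 to 9.45 with a median of 9.07 after stem cells, and from 9.50 to 9.89 with a median of 9.74 after saline. The highest stem cell value was under the lowest saline value, and this separation was kept when the arrays were centred or normalized again. The log2 difference was -0.64 ± 0.14 (SE), between means of 9.07 ± 0.26 (SD, n = 7) and 9.71 ± 0.16 (SD, n = 6), or 35.6% lower on the linear scale. A second VPS28 probe set lay under the filter at a mean of 2.70, with group means that differed by -0.18.

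**Figure D2:**
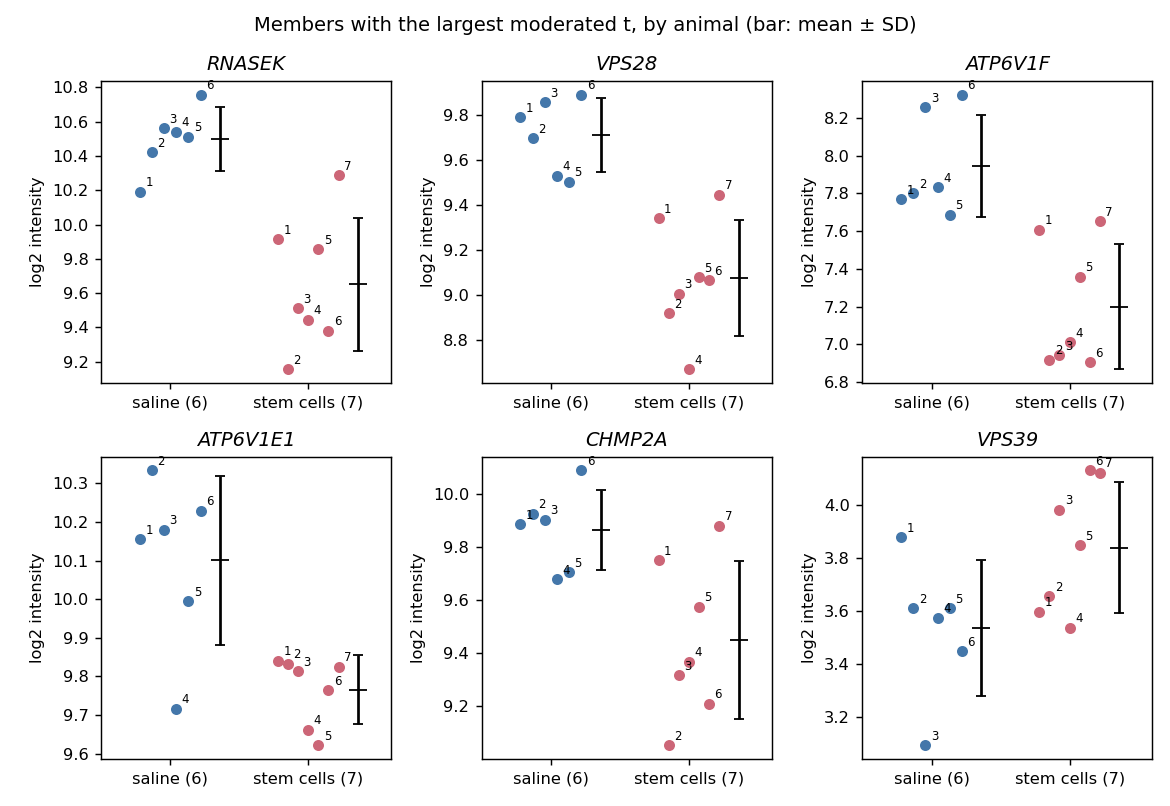
Log2 intensity (vertical axis, its own range in each panel) in each of 6 saline and 7 stem cell animals for the 6 genes with the largest moderated t; numbers are replicates, and bars beside the points are the mean and SD. VPS28 and ATP6V1F show no overlap between the groups, RNASEK overlaps through stem cells replicate 7, and VPS39 alone has a higher mean after stem cells.

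In the V1 sector, 5 of 8 genes were negative, with a median of -0.0668 that ran from -0.147 (without stem cells replicate 6) to -0.000902 (without saline replicate 3) with 1 animal left out. It was -0.143, -0.12 and -0.111 without saline replicates 5, 2 and 4, -0.00454 without saline replicate 1, and -0.0225 and -0.041 without stem cells replicates 5 and 3. The count and median of this sector include ATP6V1F, which led to the choice, and were not computed without it. Next to ATP6V1F stood ATP6V1E1, a subunit of the outer stalk that holds the head still. Its log2 intensity ran from 9.62 to 9.84 after stem cells, with a median of 9.81, and from 9.72 to 10.33 after saline, with a median of 10.17. The stem cell animals were tightly grouped, and saline replicate 4 was the only saline animal that fell among them. The log2 difference was -0.34 ± 0.12 (SE). The other members of this sector had differences of -0.19 ± 0.16 (SE) for ATP6V1H, a regulatory subunit, -0.09 ± 0.27 for ATP6V1D, the partner of ATP6V1F in the central stalk, and -0.04 ± 0.17 for ATP6V1C1. The head subunits ATP6V1A and ATP6V1B2 stood at 0.13 ± 0.23 and 0.00 ± 0.17, and ATP6V1G1, which pairs with ATP6V1E1 in the outer stalk, at 0.05 ± 0.11. Subunits that bind each other in the pump thus differed in their values: ATP6V1F and ATP6V1D within the central stalk, and ATP6V1E1 and ATP6V1G1 within the outer one. These contrasts between subunits were not tested.

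In the V0 sector, 6 of 6 genes were negative, with a median of -0.211 (-0.145 to -0.292 with 1 animal left out). This count and median include RNASEK, at -0.85, which led to the choice, and were not computed without it. ATP6V0C, the proteolipid of the proton-carrying ring, ran from 10.26 to 11.17 with a median of 10.84 after stem cells, and from 10.85 to 11.39 with a median of 11.09 after saline. Stem cells replicates 2 and 6 had its lowest values and replicates 1, 5 and 7 lay among the saline animals, so the groups overlapped, with a log2 difference of -0.32 ± 0.16 (SE). ATP6V0E1, a small membrane subunit, ran from 8.01 to 9.26 after stem cells, with a median of 8.87, and from 8.88 to 10.02 after saline, with a median of 9.04. Its difference of -0.36 ± 0.23 (SE) rested on single animals at both ends and became -0.20 when saline replicate 2 was left out and -0.22 when stem cells replicate 6 was. The remaining genes lay closer to 0. ATP6V0D1, which joins the ring to the central stalk, stood at -0.10 ± 0.18, TCIRG1, the a3 subunit abundant in osteoclasts, at -0.09 ± 0.13, and ATP6AP2, the accessory protein also known as the prorenin receptor, at -0.03 ± 0.13. The sign of ATP6AP2 held in 22 of 24 alternatives.

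**Figure D3:**
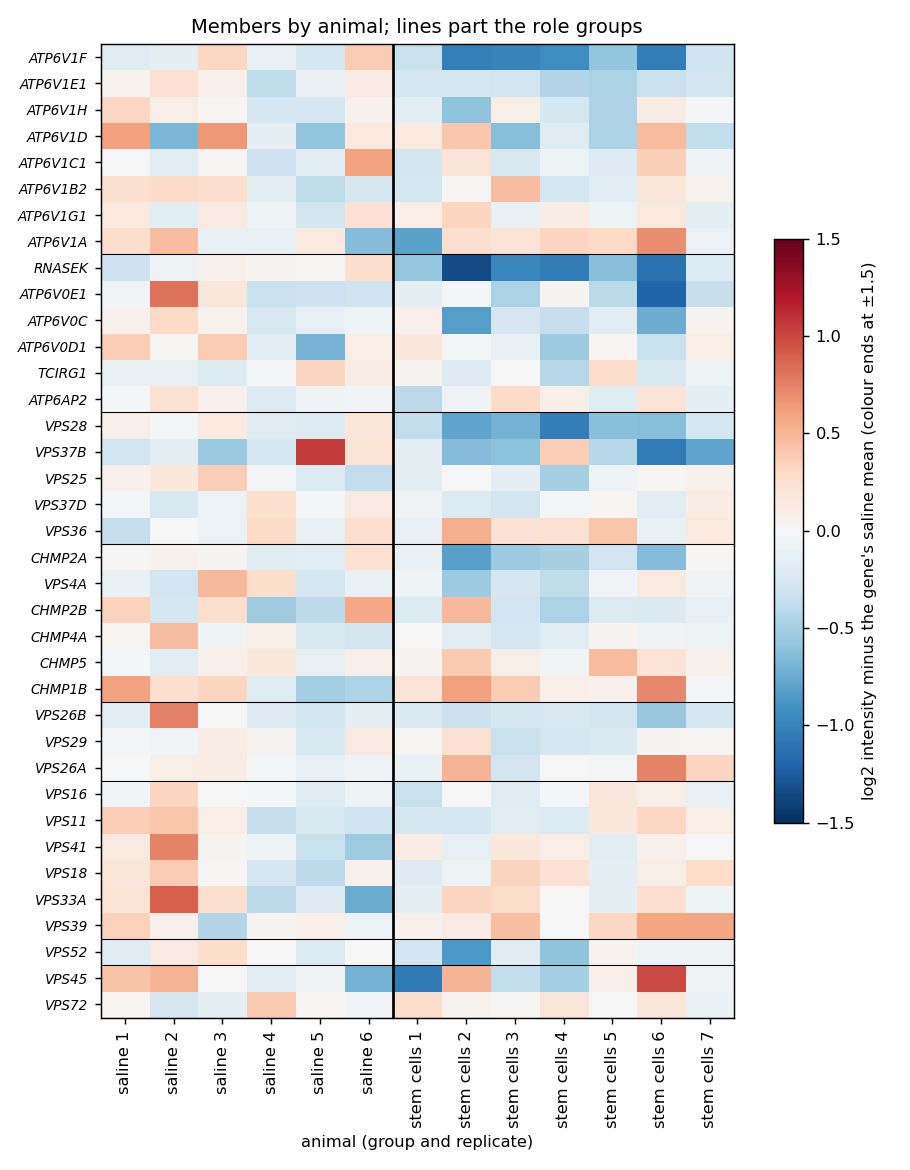
Log2 intensity of each of the 37 genes (rows, parted by role) in each animal (columns) minus that gene's mean over the 6 saline animals; blue is lower and red higher. Values ran from -1.34 to 1.05. The blue cells of ATP6V1F, RNASEK, VPS28 and CHMP2A are deepest in stem cells replicates 2, 3, 4 and 6 and palest in replicates 1 and 7.

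Among the ESCRT-I and ESCRT-II genes, 4 of 5 were negative, with a median of -0.106. This median was -0.18 when saline replicate 6 was left out and -0.29 with the filter at the 60th percentile. VPS37B, another ESCRT-I subunit, ran from 5.22 to 6.64 with a median of 5.65 after stem cells, and from 5.71 to 7.32 with a median of 6.06 after saline. The animals were widely spread and the groups overlapped. Its difference of -0.47 ± 0.27 (SE) was -0.26 without saline replicate 5. Of the ESCRT-II subunits in this group, VPS25 stood at -0.11 ± 0.15 and VPS36 at 0.19 ± 0.16. The ESCRT-II subunit SNF8, read among the partner genes below, stood at -0.45 ± 0.21. VPS37D stood at -0.08 ± 0.092, with a level just above the filter. The groups did not overlap for VPS28 among these genes, but VPS28 was one of the genes that led to the choice. The count and median above include VPS28 and were not computed without it.

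Among the genes of ESCRT-III and VPS4, 4 of 6 were negative, with a median of -0.121. This median was -0.184 when saline replicate 5 was left out, -0.00215 with the mean of all probe sets of a gene, and -0.0784 with the 3' to 5' ratio of the control transcript EF1A as a covariate. CHMP2A, a late ESCRT-III subunit that recruits VPS4, ran from 9.05 to 9.88 with a median of 9.37 after stem cells, and from 9.68 to 10.09 with a median of 9.90 after saline. Here 5 of 7 stem cell animals lay below every saline animal, and replicates 1 and 7 did not. The log2 difference was -0.41 ± 0.15 (SE). Its relative CHMP2B stood at -0.15 ± 0.21 and CHMP4A, of the family that forms the main filament, at -0.10 ± 0.14. CHMP5, a late-acting member, was read in the other direction: it ran from 11.11 to 11.63 with a median of 11.24 after stem cells, and up to 11.32 with a median of 11.18 after saline, a difference of 0.17 ± 0.11. CHMP1B was at 0.29 ± 0.21, and 6 of 7 stem cell animals lay above its saline mean. The leading probe set of VPS4A, the ATPase that disassembles the filament, gave -0.17 ± 0.17 and a dimmer probe set of the same gene gave 0.36 ± 0.26, so that its direction depended on the probe set, and the mean of both was 0.0926.

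The retromer genes VPS26B, VPS29 and VPS26A stood at -0.31 ± 0.17, -0.07 ± 0.12 and 0.17 ± 0.16 (SE). VPS26B ran from 6.22 to 6.58 with a median of 6.52 after stem cells, and from 6.51 to 7.55 with a median of 6.65 after saline. Its difference came in large part from saline replicate 2, the animal at 7.55, and was -0.15 without it. The 2 forms of VPS26, which take the same place in alternative retromer complexes, thus had differences of opposite sign. This contrast between them was not tested. All 3 probe sets of VPS26A that passed the filter were positive, those that did not lead at 0.06 ± 0.48 and 0.21 ± 0.17. VPS26A was at 0.07 without stem cells replicate 6.

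The HOPS and CORVET tether genes had a positive median, 0.0475, with 4 of 6 genes positive. That sign was not stable. The median was -0.0253 without saline replicate 5, -0.0722 without saline replicate 6 and -0.183 with a measure of RNA integrity as a covariate. VPS39, a HOPS subunit that binds the GTPase RAB7, ran from 3.54 to 4.13 with a median of 3.85 after stem cells, and from 3.09 to 3.88 with a median of 3.59 after saline. All 7 stem cell animals lay above the saline mean, the groups overlapped, and the difference was 0.30 ± 0.14 (SE) at a level close to the filter. A second VPS39 probe set lay under the filter at a mean of 2.91, with group means that differed by -0.013. VPS18, VPS33A and VPS41 stood at 0.07 ± 0.14, 0.07 ± 0.21 and 0.02 ± 0.19, and VPS16 and VPS11 at -0.05 ± 0.12 and -0.04 ± 0.17. A second probe set of VPS16 gave 0.05 ± 0.12.

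VPS52, shared by the GARP and EARP tethers, ran from 7.00 to 7.91 with a median of 7.68 after stem cells, and from 7.67 to 8.12 with a median of 7.86 after saline. The groups overlapped, the saline mean exceeded 6 of 7 stem cell values, and the difference was -0.29 ± 0.17 (SE). VPS45, which works with SNARE proteins in endosomal fusion, stood at -0.06 ± 0.30. VPS72 carries the VPS prefix but encodes a chromatin protein that deposits a histone variant. Its probe sets disagreed, with 0.09 ± 0.14 for the leading one and -0.45 ± 0.21 for the other. Among the 9 genes with more than 1 probe set above the filter, VPS16, VPS4A and VPS72 were the 3 whose probe sets differed in sign.

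The covariation of RNASEK, ATP6V1F and VPS28 within a group was not itself used in choosing them. Their spread within groups may have entered the choice, since a moderated t depends on it. CHMP2A was added to them after its values had been seen. All values of an animal come from the same biopsy and array. Stem cells replicates 7, 1 and 5 lay above their group's mean over these 4 genes, by 0.47, 0.31 and 0.12 on the log2 scale, and the other 4 stem cell animals lay below it. Saline replicates 6 and 3 were the saline animals above their mean, by 0.26 and 0.14. The correlations of the 3 genes that led to the choice were tested within each group, 6 relations in all, by exact two-sided permutation of the pairings. This set of relations was chosen after the values had been seen. The permutation asks whether a pair is uncorrelated. It does not compare these pairs with pairs of other genes that were low on the same contrast.

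In the stem cell animals RNASEK and ATP6V1F correlated at a Pearson r of 0.935 and a Spearman rho of 0.929 (n = 7, exact permutation p of 0.00119 and 0.00675, adjusted over the 6 relations to 0.00714 and 0.0405). The r was 0.879 without the 2 animals farthest from the median of RNASEK. With 1 stem cell animal left out it ran from 0.907 to 0.962, and the adjusted exact p was 0.05 without replicates 1, 5 or 7, so that it no longer passed in those fits. In the saline animals the same pair had an r of 0.687 and a rho of 0.829 (n = 6, exact permutation p of 0.119 and 0.0583, adjusted to 0.143 and 0.117), with an r of 0.523 without the 2 farthest animals. With 1 saline animal left out, that r ran from 0.416 (without replicate 6) to 0.797 (without replicate 5). The relation thus passed in the stem cell animals and not in the saline animals, and the difference between the groups was not tested.

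The relations with VPS28 did not pass on the deposited normalization, and their calls changed with the processing. VPS28 and ATP6V1F had an r of 0.809 and a rho of 0.679 in the stem cell animals (exact permutation p of 0.0232 and 0.11, adjusted to 0.0635 and 0.131) and an r of 0.779 and a rho of 0.771 in the saline animals (exact permutation p of 0.0931 and 0.103, adjusted to 0.14 and 0.131). Without the 2 animals farthest from the median of VPS28, the r was 0.869 and 0.871. RNASEK and VPS28 had an r of 0.799 and a rho of 0.821 in the stem cell animals (exact permutation p of 0.0317 and 0.0341, adjusted to 0.0635 and 0.102), which fell to an r of 0.344 without the 2 farthest animals and so rested on them. In the saline animals that pair had an r of 0.140 and a rho of 0.486 (exact permutation p of 0.776 and 0.356, adjusted to 0.776 and 0.356), with an r of 0.0692 without the 2 farthest. Leaving out 1 saline animal took that r from -0.361 (without replicate 6) to 0.569 (without replicate 1).

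In the stem cell animals both relations with VPS28 passed when the arrays were normalized again by quantiles (adjusted exact permutation p of 0.0492 for each), when they were centred on their medians (0.0312 for each) and when stem cells replicate 4 was left out (0.0167 for each). VPS28 and ATP6V1F also passed in the saline animals with centred arrays (adjusted exact permutation p of 0.0312, r of 0.867). With any other animal left out, the adjusted exact permutation p of the VPS28 relations lay above 0.05.

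Over all 13 animals, each taken as its deviation from its group's mean, the likeness to ATP6V1F was set against all probe sets tested, as a description. CHMP2A had an r of 0.874, higher than 99.5% of probe sets, RNASEK 0.851 (99.2%) and VPS28 0.794 (98.2%). For RNASEK the closest gene of the pump and sorting machinery was again CHMP2A, with an r of 0.859, higher than 99.8% of probe sets. ATP6V0C followed the same animals less closely, at 0.612 with ATP6V1F and 0.662 with RNASEK, and ATP6V1E1 had an r of 0.228 and -0.008 with them but 0.502 with VPS28, higher than 88.9% of probe sets. ATP6V0D1 was also closest to VPS28, at 0.742 (98.1%), beside 0.575 with ATP6V1F and 0.229 with RNASEK. ATP6V1A, the catalytic subunit of the same pump, had an r of -0.771 with ATP6V1F, lower than nearly all probe sets (0.597% lay below it). Its second probe set had an r of -0.113, so that this opposite course was seen in 1 of the 2 probe sets of ATP6V1A. The median r over all 666 pairs of the 37 genes was 0.0749, with no such median computed for other genes.

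**Figure D4:**
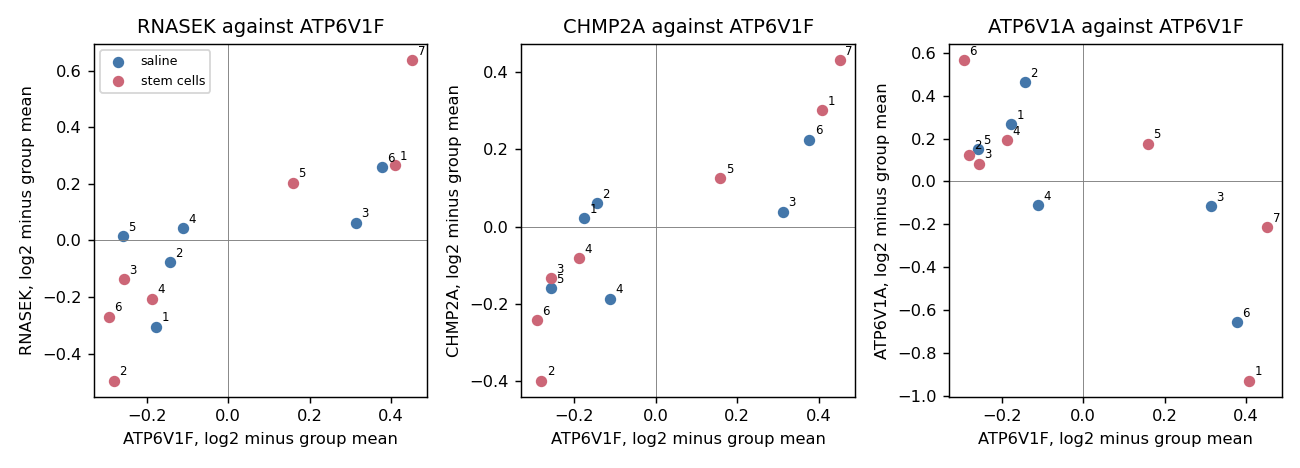
Log2 intensity minus the group's mean for ATP6V1F (horizontal axes) against RNASEK, CHMP2A and the leading probe set of ATP6V1A (vertical axes), 1 point per animal, numbered by replicate. RNASEK and CHMP2A rise with ATP6V1F over both groups (r of 0.851 and 0.874, n = 13), and ATP6V1A falls (r of -0.771).

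The tissue makeup of the biopsies was read from marker genes, each list as its mean per animal. Macrophage and monocyte markers, from cells rich in lysosomes, averaged 6.59 ± 0.36 (SD, n = 7) in the stem cell group against 6.93 ± 0.27 (SD, n = 6) in the saline group, and 11 of 12 genes were negative (exact permutation p of 0.081, adjusted to 0.388 over 8 lists). The per-animal means ran from 6.14 to 7.14 and from 6.53 to 7.36. Of the 8 lists 0 passed, and 0 had an unadjusted exact permutation p under 0.05, the other lists being cardiomyocyte (0.121), smooth muscle and pericyte (0.156), endothelial (0.194), red cell (0.453), lymphocyte (0.481), adipocyte (0.811) and fibroblast and matrix markers (0.828). The list means of macrophages and of cardiomyocytes correlated with the mean of the 37 genes over 13 animals at 0.248 and -0.348, given as a description. Within groups, the mean of RNASEK, VPS28, ATP6V1F and CHMP2A had an r of -0.0643 with macrophage markers and -0.154 with cardiomyocyte markers. Its r with the other lists ran from -0.464 for fibroblast and matrix markers to 0.52 for red cell markers, and with the first principal component within groups it was 0.536. With the median log2 intensity of the array its r was -0.408. The part of the macrophage markers in the low values was not tested.

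RNA integrity was read from the control transcript EF1A, as its 3' probe set over its 5' probe set in log2, which was 0.815 ± 0.11 (SD, n = 7) in the stem cell group and 0.947 ± 0.098 (SD, n = 6) in the saline group (exact permutation p of 0.046). The same ratio was 2.89 and 3.13 for actin (exact permutation p of 0.664) and 1.51 and 1.61 for GAPDH (exact permutation p of 0.24), so that 1 of the 3 ratios differed, without adjustment. With the EF1A ratio, chosen after seeing the data, as a covariate, RNASEK stood at -0.826, ATP6V1F at -0.657 and VPS28 at -0.617, and the median of the 37 genes went from -0.083 to -0.184. Within groups, the mean of RNASEK, ATP6V1F, VPS28 and CHMP2A had an r of 0.0773 with the ratio of EF1A, -0.28 with that of GAPDH and -0.464 with that of actin. The ratios of actin and GAPDH were not fitted as covariates, so dependence of the differences on them was not tested.

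The partners of these genes were read from lists of ESCRT, pump assembly, endosome, lysosome and nutrient-sensing genes. Of 55 named genes 50 passed the filter, and 0 passed an adjusted p of 0.05 in either direction (limma). At an unadjusted p under 0.05, 6 were lower after stem cells and 1 was higher, where 5.15% and 5.4% of all probe sets were. Negative differences were found in 32 of 50, where 59.4% of genes were negative, and the median was -0.0355. The lower ones were LAMTOR5 at -0.65 ± 0.21 (SE) and LAMTOR2 at -0.59 ± 0.21, both of the Ragulator complex that sits beside the pump on lysosomes (LAMTOR3 and LAMTOR4 stood at 0.00 ± 0.14 and -0.80 ± 0.40), the hydrolase HEXA at -0.36 ± 0.15, the cholesterol carrier NPC2 at -0.31 ± 0.14, the SNARE protein VAMP8 at -0.35 ± 0.16 and the ESCRT-II subunit SNF8 at -0.45 ± 0.21. The higher one was EEA1, a tether of early endosomes, at 0.55 ± 0.22. Their adjusted p lay between 0.41 and 0.46.

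Over 5196 genes with 1 probe set each, the median difference was -0.0539 and 59.4% were negative. No list was tested against this background. By list, the median difference was -0.256 over 8 genes of the mTORC1 and TFEB axis and -0.19 over 16 lysosomal membrane proteins and hydrolases, of which 13 were negative. It was -0.00186 over 3 pump assembly factors, -0.0125 over 9 endosomal Rabs and sorting nexins, 0.027 over 8 phosphoinositide and tether partners and 0.114 over 6 ESCRT partners. In the last of these, SNF8 and IST1, which remodels endosomal tubules, went opposite ways, at -0.45 ± 0.21 and 0.44 ± 0.23. VMA21 and ROGDI, which help to build and reassemble the pump, stood at 0.23 ± 0.22 and 0.00 ± 0.15. FIG4, a phosphoinositide phosphatase, stood at 0.38 ± 0.20 and the sorting nexin SNX6 at 0.45 ± 0.25.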

How the data were processed

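RNA from 13 heart biopsies was hybridised to Affymetrix porcine arrays, 1 per animal, according to the labels. The deposited intensities are on a linear scale and were made by the authors with GCRMA, which corrects background and normalizes between arrays, per the submitters' processing notes. For its version, settings and genome build: not given in the sources used here. Such normalization hides a change shared by most genes.

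Of 24123 probe sets, 124 controls were left out. Of the 23999 others, 10069 had 1 symbol in the platform annotation, 198 several and 13732 none. Those with several or none were not named, and symbols can be old. A pig gene table (Sscrofa11.1) gave the same symbol for 44 of 45 genes. The contrast was fitted by limma 3.58.1 under R 4.3.3 (lmFit, eBayes with trend, Benjamini-Hochberg over 14399 probe sets), checked on simulated data. Marker lists were compared by exact permutation over all 1716 splits. Genes named were those with the 12 largest moderated t, non-overlapping groups, the 2 smallest p and the difference nearest 0 in each role group, disagreeing probe sets, and the 2 smallest p of each partner list. Others were added after their values were seen. The genes and lists were chosen with earlier results of these data known. Replicate numbers occur in both groups but are not said to pair animals. Deviations of same-numbered arrays correlated at -0.266 to 0.237, so they were not treated as pairs. No batch was given.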

Additional observations from a re-analysis of the deposited data

Results flagged for a closer look

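For each of the 37 genes that passed the filter, both groups were searched for an animal set apart from the rest of its group by Dixon's test. Of 74 sets of values, 7 held such an animal, where chance gives about 1 in 20. In the stem cell animals, ATP6V0E1 was lowest in replicate 6, at a log2 intensity of 8.01 with the next animal at 8.73. VPS26B was also lowest in replicate 6, at 6.22 beside 6.47. CHMP2B was highest in replicate 2, at 8.81 beside 8.21, and VPS25 lowest in replicate 4, at 8.43 beside 8.79. In the saline animals, VPS26B and VPS16 were highest in replicate 2, at 7.55 beside 6.78 and at 4.98 beside 4.66. ATP6V1C1 was highest in replicate 6, at 9.38 beside 8.78. RNASEK, VPS28, ATP6V1F, ATP6V1E1 and CHMP2A held no such animal in either group.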

How the results depend on the processing

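The count of genes called at an adjusted p under 0.05 was 0 of the pump and sorting genes and 0 of the partners in all 25 alternatives. Over all probe sets it was 0 to 1 with 1 animal left out, the single call coming without saline replicate 5. RNASEK ranged from -0.953 to -0.725, ATP6V1F from -0.821 to -0.657 and VPS28 from -0.697 to -0.568, and the median of the genes from -0.184 to -0.0413. The 5 lower genes at an unadjusted p under 0.05 became 5 to 7. The 1 higher gene, VPS39, was removed before the fit by a filter at the 60th percentile, so the count of 0 there was fixed by the filter. The count also became 0 with arrays centred on their median, the replicate block, a variance without trend or the 3' to 5' covariate (added after seeing the data). With 1 animal left out it was 0 to 1 (0 without saline replicates 3, 4 or 6 or stem cells replicates 3, 5, 6 or 7). The 2 genes without overlap became 1 with quantile normalization again or centred arrays, and 2 to 3 with 1 animal left out (RNASEK joined without saline replicate 1 or stem cells replicate 7, ATP6V1E1 without saline replicate 4, VPS26B without saline replicate 5). The median of the retromer genes was 0.0521 with the 3' to 5' covariate and negative in the other 23 alternatives. The r of RNASEK and ATP6V1F ran from 0.907 to 0.962 without 1 stem cell animal, and in the saline animals from 0.416 to 0.797. The replicate block used only the numbers found in both groups, so it left out stem cells replicate 7. With the block RNASEK stood at -0.953, which is also its value with that animal left out and no block. The block changed no call at an adjusted p under 0.05, and 1 of 6 stem cell arrays was closest to the saline array of its number. The causes of these shifts were not tested, and 13 arrays limit what can be seen.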
